A study of Mus musculus with 8 samples.

Results

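Glutathione transferases are the enzymes that join the tripeptide glutathione to reactive, electrophilic compounds so that these can be exported from the cell. The genes described are 10 glutathione transferase genes, taken by symbol from the 55487 gene identifiers of the tables. They are the 7 genes of the mu class, Gstm1 to Gstm7, which form a cluster on mouse chromosome 3, and 1 gene each of the pi class (Gstp1), the theta class (Gstt1) and the alpha class (Gsta4). The members were chosen by enzyme family with the difference in TPM between Chd4KO and Control already known, in particular that of Gstm3. Their values in this contrast are therefore a description. Whether a member passed the test over all genes is stated as part of that description, without its p-value, and no support is drawn from it.

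RNA sequencing measured transcript levels in 4 Chd4KO and 4 Control libraries of pancreatic beta cells, sorted by flow cytometry from dispersed islets of mice. Chd4KO mice carry a deletion of Chd4 in beta cells, and mice of both genotypes received tamoxifen. Chd4 encodes the helicase of the NuRD complex, which moves nucleosomes and carries histone deacetylases. The alleles, the Cre driver, and the age and sex of the mice are not given in the sources used here, and each library carries an animal number of its own.

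Chd4 had 8.38, 6.18, 5.27 and 2.59 TPM (transcript abundance corrected for length and scaled to a fixed total per library) in Chd4KO replicates 1 to 4, against 15.98, 13.4, 11.1 and 12.3 TPM in Control replicates 1 to 4. Every Chd4KO value lay below every Control value, and the difference was -1.18 ± 0.29 on the log2(TPM + 1) scale (limma, Benjamini-Hochberg adjusted p = 0.0725, not called). Chd4 was called lower in 5 of 17 alternatives: with median-of-ratios scaling (-0.94), scaling without hormone and mitochondrial genes (-1.11) and voom (-1.23), without Chd4KO replicate 1 (-1.37, adjusted p = 0.0422) and without Chd4KO replicate 4 (-0.91, adjusted p = 0.0318). Without Chd4KO replicates 2 and 4 its difference was -0.88. Depth in genes was 14.9 to 20.2 M reads in Chd4KO libraries and 16.4 to 40.99 M reads in Control libraries. Insulin transcripts, which define beta cells, took 32.4 to 62.0% of TPM in Chd4KO libraries and 38.1 to 41.8% in Control libraries. The highest share was in Chd4KO replicate 4. Summed acinar enzyme markers reached 40179 TPM in Chd4KO replicate 2, and 1.83 to 1573 TPM in the other 7 libraries. In bulk RNA of sorted cells, a change in RNA per cell and a change in the share of cells that express a gene cannot be told apart.

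Cytosolic glutathione transferases act as pairs of subunits, and members of the mu class can pair with each other. Besides conjugating xenobiotics, they remove products of lipid peroxidation. Beta cells are known for low activity of some other antioxidant enzymes, catalase and glutathione peroxidase among them. In many tissues the genes of this family are induced through the transcription factor Nrf2 (Nfe2l2), which binds antioxidant response elements.

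Of the 10 genes, 4 neighbouring Gstm genes and Gstp1 were higher in Chd4KO cells and no member was called lower. A gene counted as called when limma on log2(TPM + 1) gave an adjusted p under 0.05 over all genes tested. Testing required at least 1 TPM in at least 4 of the 8 libraries, and 9 of the 10 members passed, Gsta4 being the exception. Gstm3 and Gstm6 lay below 1 TPM in every Control library and so passed only through their Chd4KO values. Of all 15189 genes tested, 451 (2.97%) were called, 233 (1.53%) higher and 218 (1.44%) lower in Chd4KO. With median-of-ratios scaling the numbers were 467 higher and 285 lower. Among the members 5 were called, all higher. The Chd4KO and Control values did not overlap for 6 members, against 2252 genes (14.8%) of all tested. Without Chd4KO replicate 3, or without any of the 4 Control replicates, only 3 members were called, and these were Gstm7, Gstm3 and Gstm2. Without Chd4KO replicates 2 and 4 together, Gstm7, Gstm6, Gstm3 and Gstm2 were called higher, Gstp1 was not called (0.84) and Gstm5 was called lower (-0.65). Because the contrast was used in choosing the members, nothing is read from these shares. The median difference of the 9 members tested was 0.98, beside -0.25 for all genes tested.

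**Figure D1:**
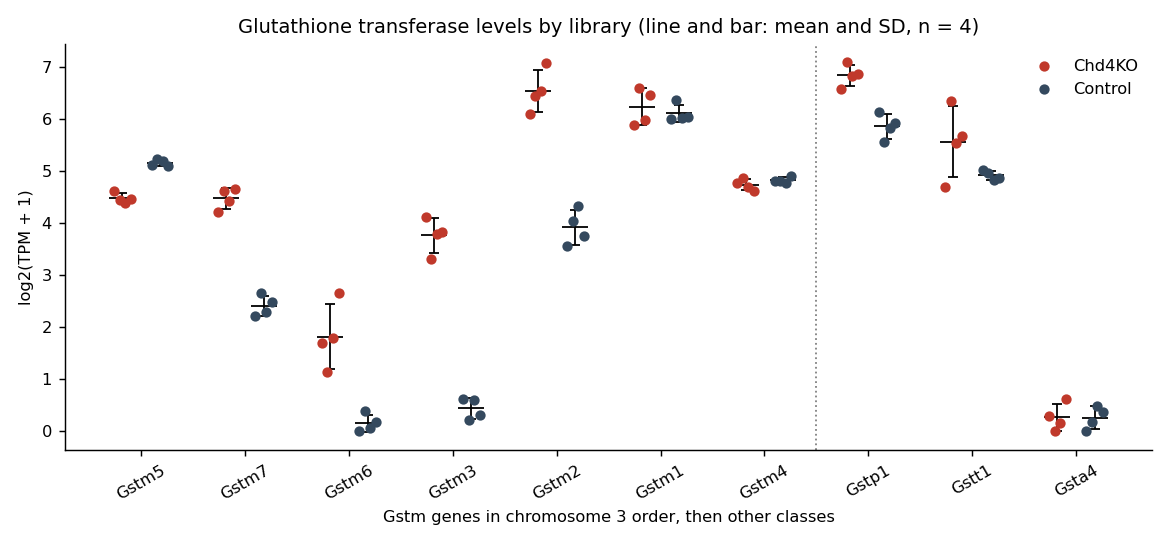
TPM of the 10 glutathione transferase genes in each library, as log2(TPM + 1), with Chd4KO (red) left of Control (blue) for each gene; lines and bars give the mean and SD over 4 libraries. The groups are apart for Gstm7, Gstm6, Gstm3, Gstm2 and Gstp1, which were higher in Chd4KO, and for Gstm5, which had lower values in Chd4KO and was not called.

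Gstm2, a mu-class transferase whose human namesake conjugates aminochrome, a dopamine oxidation product, had 67.5, 85.7, 91.7 and 134 TPM in Chd4KO replicates 1 to 4, against 10.8, 15.3, 18.99 and 12.5 TPM in Control replicates 1 to 4. The lowest Chd4KO value was above the highest Control value, and the means were 94.8 ± 28.3 TPM in Chd4KO and 14.4 ± 3.60 TPM in Control (SD, n = 4 each), a ratio of 6.58. Its difference on the log2(TPM + 1) scale was 2.62 ± 0.26 (limma, SE). These values rested on 822 to 2671 reads per Chd4KO library and 128 to 477 reads per Control library.

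Gstm3, a further mu-class enzyme, was close to absent in Control cells. It had 16.3, 8.85, 12.9 and 13.3 TPM in Chd4KO replicates 1 to 4, against 0.538, 0.165, 0.520 and 0.239 TPM in Control replicates 1 to 4. The Control values stood for only 4 to 8 reads in a library, and the Chd4KO values for 82 to 206 reads. The ratio of the means was 35.1 and the difference 3.32 ± 0.22 (log2(TPM + 1), SE), the largest among the members on this scale. It was 4.86 with a pseudocount of 0.1 and 5.36 with voom on recovered reads.

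Gstm7 had 17.6, 23.6, 20.4 and 24.1 TPM in Chd4KO replicates 1 to 4, against 3.62, 5.26, 3.89 and 4.58 TPM in Control replicates 1 to 4. Its 4 Chd4KO values were the most even among the called Gstm genes, with an SD of 14.2% of the mean, and none overlapped the Control values. The mean was 21.4 ± 3.05 TPM in Chd4KO and 4.33 ± 0.737 TPM in Control (SD, n = 4 each), and the difference was 2.07 ± 0.19 (log2(TPM + 1), SE). Gstm6 was the lowest of the 4 by level, at 2.22, 1.21, 2.44 and 5.26 TPM in Chd4KO replicates 1 to 4, against 0, 0.298, 0.0429 and 0.126 TPM in Control replicates 1 to 4. It had 17 to 124 reads in Chd4KO libraries and 0 to 11 in Control libraries, so that its Control level is known only roughly. The Gstm6 difference of 1.66 ± 0.30 (log2(TPM + 1), SE) was no longer called without Chd4KO replicate 3 or without any of the 4 Control replicates, where it was 1.61 to 1.74. At such low levels the size depends on the scale: the ratio of mean TPM was 23.8, and the log2 difference was 3.74 with a pseudocount of 0.1 and 4.61 with voom on recovered reads.

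The remaining Gstm genes did not pass the test. Gstm1, the mu-class enzyme with the highest level in Control cells, had 58.2, 96.2, 62.5 and 87.1 TPM in Chd4KO replicates 1 to 4, against 62.9, 81.2, 64.2 and 64.5 TPM in Control replicates 1 to 4. The groups overlapped, and the difference was 0.13 ± 0.22 (log2(TPM + 1), SE). It was -0.17 without Chd4KO replicates 2 and 4, the libraries with its highest values. Gstm4 had 26.3, 28.2, 24.8 and 23.5 TPM in Chd4KO replicates 1 to 4, against 26.9, 27.0, 26.3 and 28.8 TPM in Control replicates 1 to 4, a difference of -0.08 ± 0.16 (log2(TPM + 1), SE). With the libraries scaled by the median of ratios it was 0.20, also not called. Its SD was 7.92% of the mean in Chd4KO and 3.95% in Control, so this gene varied little in either group.

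Gstm5, the mouse counterpart of human GSTM3 and known mainly from testis and brain, had 23.5, 20.7, 19.9 and 21.01 TPM in Chd4KO replicates 1 to 4, against 33.7, 36.4, 35.4 and 33.0 TPM in Control replicates 1 to 4. All Chd4KO values were below all Control values, with means of 21.3 ± 1.56 TPM in Chd4KO and 34.6 ± 1.53 TPM in Control (SD, n = 4 each). The difference of -0.68 ± 0.16 (log2(TPM + 1), SE) was not called under the settings used throughout. With all 8 libraries it was called lower in Chd4KO when no filter was set and with a variance trend and robust estimation. It was also called lower without Chd4KO replicate 4, at -0.67. Relative to the median of all genes tested, which itself was -0.25, Gstm5 stood at -0.42.

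The cluster spans chr3:107895821-108044894 (GRCm38, the build of mm10; GENCODE M21), a stretch of 149074 bases. Gstm5 comes first and lies on the plus strand, followed on the minus strand by Gstm7, Gstm6, Gstm3, Gstm2, Gstm1 and Gstm4. The 4 called genes were thus contiguous among the Gstm genes, with Gstm5 on one side and Gstm1 and Gstm4 on the other, none of which passed the test. Gaps between adjacent genes were 7029 to 27647 bases, and the gap between Gstm2 and Gstm1, across which the call ends, was 25801 bases. Within the cluster, between Gstm3 and Gstm2, lies also the processed pseudogene Gm12497. It had 0.738 ± 0.887 TPM in Chd4KO and 1.77 ± 0.994 TPM in Control (SD, n = 4 each) and was not called. These values stood for 0 to 5 reads in a Chd4KO library and 3 to 6 in a Control library, too few to say whether it differed. The position of the called genes is a description of these values, not a test of position.

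Beyond the Gstm genes, 35 annotated genes lie between them or within 250000 bases of either end, and 17 of these were tested. None was called by limma, beside 2.97% of all genes tested, and limma's voom on recovered reads also called 0. At that share a count of 0 among 17 genes says little about the flanks. An unadjusted limma p under 0.05 was found for 4 (23.5%), beside 2460 (16.2%) of all genes tested. The median difference of these 17 was -0.44, beside -0.25 for all genes tested. On the side of Gstm5, the Eps8-family gene Eps8l3 averaged 0.993 ± 0.858 TPM in Chd4KO and 3.004 ± 0.930 TPM in Control (limma, adjusted p = 0.139). There too, the cytokine gene Csf1 averaged 16.3 ± 16.6 TPM in Chd4KO and 10.6 ± 4.63 TPM in Control, and Ahcyl1, a regulator of inositol trisphosphate receptors, averaged 86.7 ± 49.0 TPM in Chd4KO and 82.3 ± 10.2 TPM in Control (SD, n = 4 each).

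On the side of Gstm4, Gnat2, the alpha subunit of cone transducin, averaged 17.1 ± 4.18 TPM in Chd4KO and 28.4 ± 3.53 TPM in Control (SD, n = 4 each) without overlap of the groups, at a limma adjusted p of 0.128. Gnai3, an inhibitory G protein subunit, averaged 100.4 ± 51.5 TPM in Chd4KO and 121 ± 4.14 TPM in Control, and the AMP deaminase gene Ampd2 averaged 107 ± 53.8 TPM in Chd4KO and 130.5 ± 12.3 TPM in Control. The sorting receptor gene Sort1 averaged 20.1 ± 10.6 TPM in Chd4KO and 32.9 ± 5.27 TPM in Control (adjusted p = 0.350). The other tested protein-coding neighbours, Amigo1, Cyb561d1, Atxn7l2 and the proteasome subunit gene Psma5, differed by -0.49 to -0.04 (log2(TPM + 1)).

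**Figure D2:**
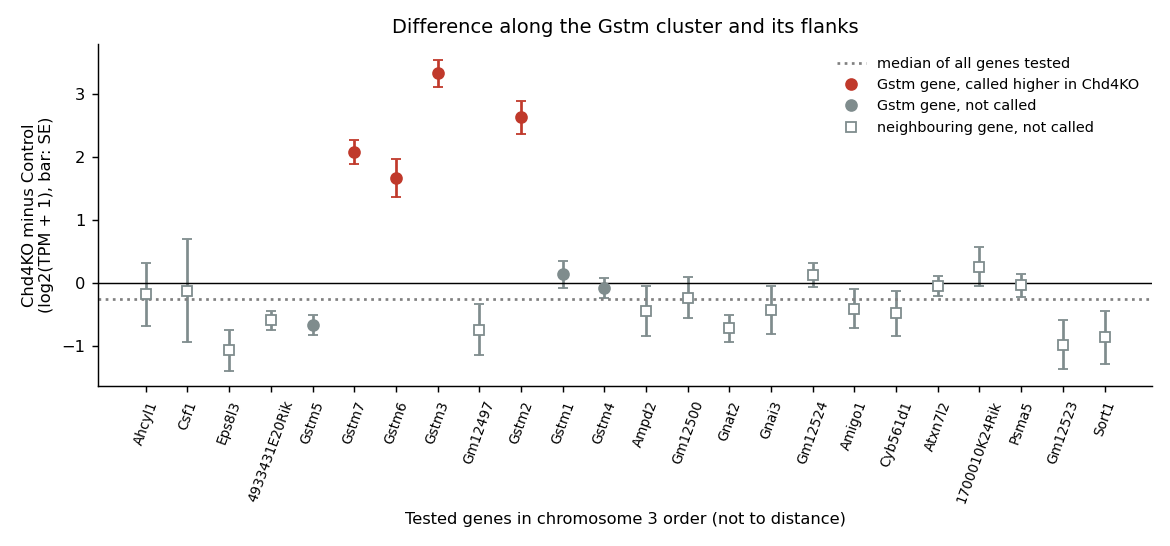
Difference between Chd4KO and Control (log2(TPM + 1), bar: limma SE) for the 7 Gstm genes (circles) and the 17 tested neighbours (squares), in their order along chromosome 3 and not to distance. Gstm7, Gstm6, Gstm3 and Gstm2 stand at 1.66 to 3.32 and every other gene shown lies between -1.08 and 0.25; the dotted line is the median of all genes tested, -0.25.

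The summed mu-class message was higher in Chd4KO cells, and its make-up differed. The 7 Gstm genes together had 212, 264, 235 and 309 TPM in Chd4KO replicates 1 to 4, against 138, 166, 149 and 144 TPM in Control replicates 1 to 4. The ratio of the means was 1.71, and 1.49 without Chd4KO replicates 2 and 4. Gstm7, Gstm6, Gstm3 and Gstm2 summed to 132 ± 31.7 TPM in Chd4KO and 19.2 ± 3.78 TPM in Control (SD, n = 4 each), a ratio of 6.86. Gstm5, Gstm1 and Gstm4 summed to 123 ± 18.6 TPM in Chd4KO and 130.1 ± 9.75 TPM in Control, with overlapping groups.

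As a share of the Gstm sum, the 4 called genes made up 51.4% ± 5.45 in Chd4KO and 12.8% ± 2.07 in Control (SD, n = 4 each). Gstm2 alone took 36.7% ± 5.59 in Chd4KO and 9.61% ± 2.16 in Control. Gstm1 took 29.7% ± 4.52 in Chd4KO and 45.6% ± 2.53 in Control, and Gstm5 took 8.56% ± 1.84 in Chd4KO and 23.2% ± 1.03 in Control. The ratio of Gstm2 to Gstm1 within a library, which does not depend on the scaling of TPM, was 1.16, 0.890, 1.47 and 1.54 in Chd4KO replicates 1 to 4, against 0.171, 0.189, 0.296 and 0.194 in Control replicates 1 to 4. Gstm2 thus exceeded Gstm1 in 3 of 4 Chd4KO libraries and in no Control library.

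**Figure D3:**
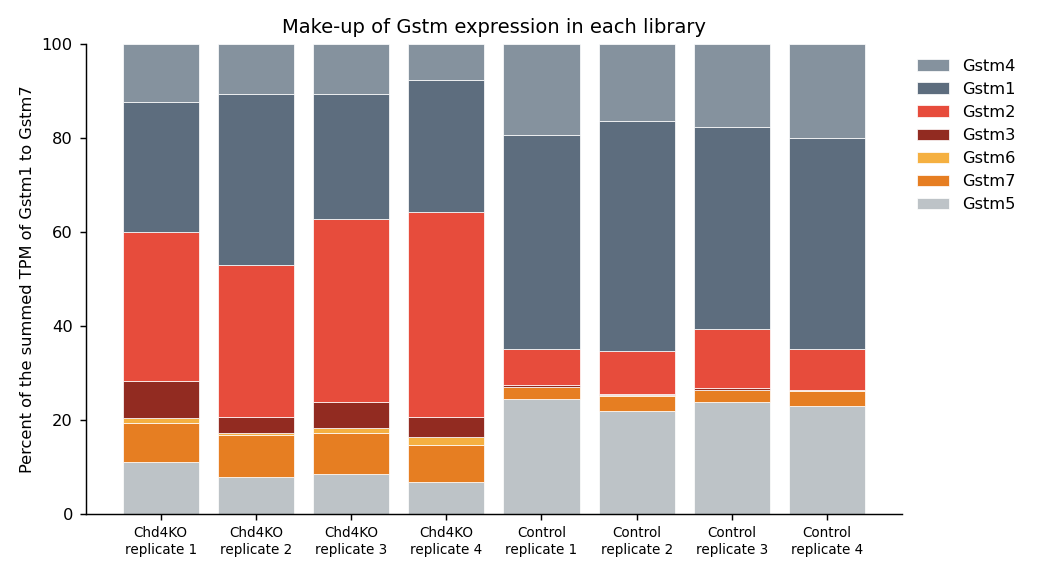
Percent of the summed TPM of Gstm1 to Gstm7 contributed by each gene in each library, stacked in chromosome order from Gstm5 at the bottom, with the 4 Chd4KO libraries left of the 4 Control libraries. The red and orange segments (Gstm7, Gstm6, Gstm3 and Gstm2) fill 45.1 to 57.4% of each Chd4KO bar and 10.8 to 15.7% of each Control bar.

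Promoter windows of RefSeq (GRCm38.p6, 250 bases before and 50 after the start) were available for 9 members. The windows of 3 called genes and of 2 genes that were not called are shown here because they differ in CpG content. Capitals mark each CpG dinucleotide, and every window reads from 5′ to 3′ on the strand of its gene.
Gstm3, chr3:107969125-107969424, minus strand: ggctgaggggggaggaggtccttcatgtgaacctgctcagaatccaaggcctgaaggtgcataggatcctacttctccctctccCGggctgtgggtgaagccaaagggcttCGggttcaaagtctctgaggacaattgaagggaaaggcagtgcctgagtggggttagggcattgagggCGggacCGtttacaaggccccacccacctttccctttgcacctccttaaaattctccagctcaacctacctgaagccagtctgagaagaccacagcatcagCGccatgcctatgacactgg
Gstm2, chr3:107986371-107986670, minus strand: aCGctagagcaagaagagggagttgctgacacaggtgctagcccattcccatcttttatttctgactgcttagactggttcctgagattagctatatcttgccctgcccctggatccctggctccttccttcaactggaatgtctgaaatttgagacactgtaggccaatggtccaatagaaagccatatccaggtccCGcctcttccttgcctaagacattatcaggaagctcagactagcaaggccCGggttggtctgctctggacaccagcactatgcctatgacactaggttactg
Gstm7, chr3:107931768-107932067, minus strand: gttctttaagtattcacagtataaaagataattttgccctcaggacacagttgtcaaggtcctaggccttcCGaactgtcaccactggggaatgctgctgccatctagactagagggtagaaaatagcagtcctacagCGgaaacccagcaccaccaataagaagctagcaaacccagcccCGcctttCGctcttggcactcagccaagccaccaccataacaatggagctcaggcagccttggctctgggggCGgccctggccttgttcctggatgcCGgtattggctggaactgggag
Gstm1, chr3:108017924-108018223, minus strand: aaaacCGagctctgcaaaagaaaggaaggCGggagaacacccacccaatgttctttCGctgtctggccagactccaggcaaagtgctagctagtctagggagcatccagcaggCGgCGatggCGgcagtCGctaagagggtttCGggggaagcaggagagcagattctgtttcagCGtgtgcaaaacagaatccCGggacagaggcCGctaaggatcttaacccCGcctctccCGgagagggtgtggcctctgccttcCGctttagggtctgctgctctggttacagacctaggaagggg
Gstm5, chr3:107895604-107895903, plus strand: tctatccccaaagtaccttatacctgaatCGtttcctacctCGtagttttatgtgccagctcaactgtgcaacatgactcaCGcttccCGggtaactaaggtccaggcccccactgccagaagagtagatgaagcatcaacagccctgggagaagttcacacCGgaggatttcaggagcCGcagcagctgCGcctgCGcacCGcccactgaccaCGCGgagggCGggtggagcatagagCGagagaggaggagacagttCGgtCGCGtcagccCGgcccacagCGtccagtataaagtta
The windows of the 4 called Gstm genes held few CpG, with 6 in Gstm7, 5 in Gstm6, 5 in Gstm3 and 3 in Gstm2. Those of the other Gstm genes held 14 in Gstm1, 14 in Gstm4 and 18 in Gstm5. Outside the cluster Gstp1, which was called, held 20 CpG and Gstt1, which was not, held 8, so the contrast seen among Gstm genes does not extend to Gstp1. The median was 7 over all 32851 windows in the table and 21 over the 9874 tested genes with a window. The starts used by RefSeq lay 0 to 109 bases from the GENCODE ends for the Gstm genes and 853 bases away for Gstt1.

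Of these tested genes, each taken with the window nearest its start, 1185 had at most 6 CpG, and 60 of these (5.06%) were called higher and 34 (2.87%) lower in Chd4KO. Of the 8689 genes with more than 6 CpG, 99 (1.14%) were called higher and 108 (1.24%) lower. The limit of 6 was set after the member values were seen, and these shares are a description without a test. Gstm7, Gstm6, Gstm3 and Gstm2, from which the limit was taken, are themselves among the 60 called higher. Genes below 1 TPM in every Control library, such as Gstm3 and Gstm6, were tested only through their Chd4KO values. The antioxidant response element core, searched as TGACNNNGC on both strands, occurred in the window of Gstm5 alone among the 9 members, where the letters tgaccacgc begin 42 bases before the start. Of all windows, 12.4% held a match. The letters TATAAA occurred in the windows of Gstm5 and Gstm7, and in 13.6% of all windows.

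**Figure D4:**
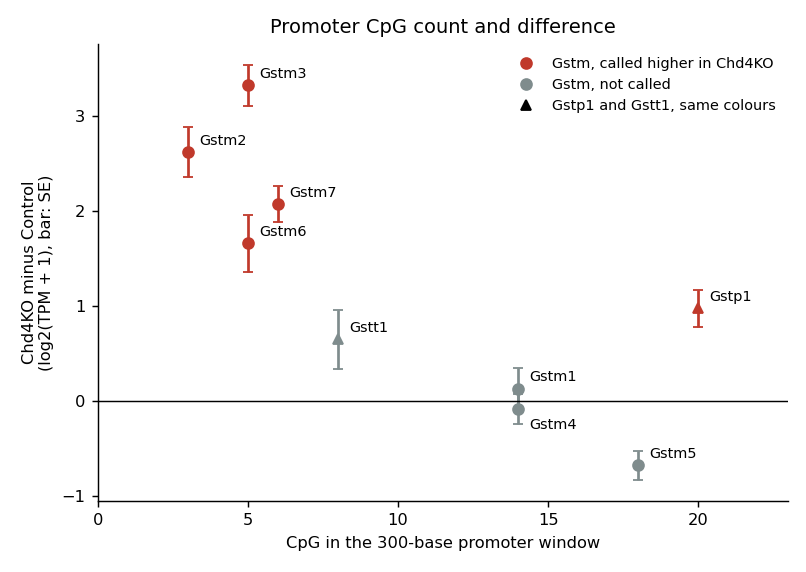
Number of CpG in the 300-base promoter window (horizontal axis) and difference between Chd4KO and Control (vertical axis, log2(TPM + 1), bar: limma SE) for the 9 members with a window; circles are Gstm genes, triangles Gstp1 and Gstt1, red the genes called higher in Chd4KO. Gstm2, Gstm3, Gstm6 and Gstm7 have 3 to 6 CpG and the highest differences, and Gstp1 is called at 20 CpG.

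The Gstm genes are close copies, which bears on how reads are assigned. Between their longest coding sequences identity, taken over the alignment with its gaps, was 64.0 to 85.2% over 21 pairs. It was 49.5 to 53.4% between Gstm genes and members of the other classes. By this measure Gstm2 and Gstm7 were the closest pair, at 85.2%, and Gstm1 and Gstm3 stood at 79.9%. The Gstm1 sequence has 732 bases, against 654 in Gstm2, Gstm3 and Gstm7. The gaps this adds lower every pair with Gstm1, so which pair is closest is not settled. Of the 50-base stretches of their transcripts, 28.8% of Gstm3, 18.9% of Gstm1, 9.44% of Gstm5, 5.97% of Gstm6, 5.66% of Gstm2, 0.532% of Gstm7 and 0% of Gstm4 occurred also in another gene. The gene sharing most stretches with Gstm3 was Gm8834, and for Gstm1 it was Gstm2-ps1. Gstp1 shared 33.7% of its stretches, mainly with Gstp2. The sources used here do not say how reads matching several genes were treated, so the levels of Gstm3, Gstm1 and Gstp1 are the less certain ones. Gstm5 overlaps 4933431E20Rik on the opposite strand over 393 bases, and all its shared stretches were with that gene. The library kits named do not mark strand, so reads in the overlap cannot be told apart. That antisense gene averaged 1.78 ± 0.229 TPM in Chd4KO and 3.20 ± 0.135 TPM in Control (SD, n = 4 each). The part of the overlap in the Gstm5 difference was not tested.

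Gstp1, the pi-class enzyme, which also binds the stress kinase JNK, lies at chr19:4035407-4037985 on the minus strand. It had 94.5, 135, 112 and 115 TPM in Chd4KO replicates 1 to 4, against 69.6, 45.9, 55.4 and 59.6 TPM in Control replicates 1 to 4. All Chd4KO values exceeded all Control values, with means of 114 ± 16.5 TPM in Chd4KO and 57.6 ± 9.81 TPM in Control (SD, n = 4 each) and a ratio of 1.98. Its difference of 0.98 ± 0.20 (log2(TPM + 1), SE) was called with all 8 libraries. It was no longer called without Chd4KO replicate 2, without Chd4KO replicate 3, or without any of the 4 Control replicates, where it was 0.87 to 1.07.

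Gstt1, the theta-class enzyme that acts on small halogenated compounds, lies at chr10:75783813-75798584 on the minus strand. It had 24.9, 80.1, 45.3 and 50.2 TPM in Chd4KO replicates 1 to 4, against 31.4, 29.98, 27.3 and 28.1 TPM in Control replicates 1 to 4. The lowest Chd4KO value was below every Control value while the other 3 were above them, and the SD was 45.5% of the mean in Chd4KO and 6.36% in Control. Its difference of 0.65 ± 0.31 (log2(TPM + 1), SE) was not called. It was 0.94 without Chd4KO replicate 1, 0.39 without Chd4KO replicate 2 and 0.20 without Chd4KO replicates 2 and 4, and not called in any of these. The highest value was in Chd4KO replicate 2, the library with the high acinar sum, and the part of acinar RNA in it was not tested.

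Gsta4, the alpha-class enzyme that conjugates hydroxynonenal, a lipid peroxidation product, lies at chr9:78182774-78209349 on the plus strand. It had 0.218, 0, 0.109 and 0.533 TPM in Chd4KO replicates 1 to 4, against 0, 0.128, 0.404 and 0.297 TPM in Control replicates 1 to 4. With 0 to 8 reads in a Chd4KO library and 0 to 6 in a Control library, a difference was not detectable at this depth.

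Ranked by mean TPM, the order in Chd4KO was Gstp1, Gstm2, Gstm1, Gstt1, Gstm4, Gstm7, Gstm5, Gstm3, Gstm6 and Gsta4, and the order in Control was Gstm1, Gstp1, Gstm5, Gstt1, Gstm4, Gstm2, Gstm7, Gstm3, Gsta4 and Gstm6. In Chd4KO, Gstp1, Gstm2 and Gstm1 at the top were not separated in every library, each exceeding the next in 3 of 4. Likewise Gstt1 and Gstm4, Gstm4 and Gstm7, and Gstm7 and Gstm5 kept their order in 3 of 4 Chd4KO libraries. In Control, Gstm1 exceeded Gstp1 in 3 of 4 libraries, and Gstp1 exceeded Gstm5, Gstm5 exceeded Gstt1 and Gstm4 exceeded Gstm2 in all 4. Gsta4 and Gstm6 could not be ordered in Control. Gsta4 was the higher in 2 libraries and Gstm6 in Control replicate 2, and both were at 0 in Control replicate 1. Gstm2 was second in Chd4KO and sixth in Control.

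The 5 other genes whose log2(TPM + 1) over the 8 libraries was most like that of the Gstm sum were C330022C24Rik, Aldh3b1, Chil1, Gm24017 and Nt5dc2, with Pearson r of 0.990, 0.989, 0.984, 0.980 and 0.979. These r include the difference between the genotypes and share its libraries, so they are a description, and no test of the same difference is given for these genes. Aldh3b1, an aldehyde dehydrogenase that oxidises lipid aldehydes, had 9.78, 13.98, 11.1 and 14.4 TPM in Chd4KO replicates 1 to 4, against 5.17, 6.75, 6.21 and 6.18 TPM in Control replicates 1 to 4, a ratio of means of 2.03. The chitinase-like gene Chil1 averaged 3.94 ± 1.60 TPM in Chd4KO and 0.453 ± 0.292 TPM in Control, where it was below 1 TPM in every library. Nt5dc2 averaged 78.2 ± 16.3 TPM in Chd4KO and 41.4 ± 8.11 TPM in Control. C330022C24Rik, annotated as antisense, averaged 5.42 ± 2.28 TPM in Chd4KO and 1.14 ± 0.326 TPM in Control. Gm24017, annotated as a miRNA, was listed at 3.80 to 16.3 TPM in Chd4KO on 3 to 21 reads and at 0 in every Control library.

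The other glutathione transferases of the genome gave no called gene. Of 17 found, 9 were tested and 0 called by limma, beside 2.97% of all genes tested. Voom also called 0, beside 586 of all 15167 genes it tested. At such shares a count of 0 among 9 genes says little about this list. An unadjusted p under 0.05 was found for 5 (55.6%), beside 16.2% of all genes tested. Their median difference was -0.11, beside -0.25 for all genes tested. Gstz1, which isomerises maleylacetoacetate in tyrosine breakdown, was the most abundant, at 76.5 ± 8.32 TPM in Chd4KO and 82.4 ± 0.938 TPM in Control (SD, n = 4 each). Gsto1 and Gsto2 are omega-class enzymes that reduce dehydroascorbate. Gsto1 averaged 16.99 ± 12.3 TPM in Chd4KO and 22.9 ± 1.82 TPM in Control, and was called lower without Chd4KO replicates 2 and 4 (limma, adjusted p = 0.0293). Gsto2 averaged 7.46 ± 2.27 TPM in Chd4KO and 4.73 ± 0.849 TPM in Control. Gstk1, the kappa-class enzyme of mitochondria and peroxisomes, averaged 10.1 ± 1.36 TPM in Chd4KO and 9.35 ± 3.13 TPM in Control.

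Among the same 9 genes, Gstt2, another theta-class enzyme, averaged 6.41 ± 0.980 TPM in Chd4KO and 4.13 ± 0.459 TPM in Control without overlap (limma, adjusted p = 0.177). Gstp2, the close copy of Gstp1, averaged 1.46 ± 0.210 TPM in Chd4KO and 0.484 ± 0.777 TPM in Control (adjusted p = 0.211). Without Control replicate 1 it was called higher, at an adjusted p of 0.026. Hpgds, the transferase that makes prostaglandin D2, averaged 4.60 ± 0.891 TPM in Chd4KO and 8.81 ± 2.76 TPM in Control without overlap (adjusted p = 0.131). Microsomal transferases are membrane proteins unrelated in sequence to the cytosolic ones. Mgst3 averaged 9.46 ± 2.03 TPM in Chd4KO and 15.7 ± 2.61 TPM in Control without overlap (adjusted p = 0.138). It was called lower without Chd4KO replicate 4 (adjusted p = 0.0295). Mgst1 averaged 6.17 ± 0.758 TPM in Chd4KO and 9.75 ± 8.74 TPM in Control.

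Genes that make, reduce, use, export or break down glutathione numbered 33, of which 24 were tested. Of these, 2 (8.33%) were called, both higher in Chd4KO, beside 2.97% of all genes tested. Unadjusted limma p was under 0.05 for 4 (16.7%), beside 16.2% of all genes tested. The groups did not overlap for 4, beside 14.8% of all genes tested. The median difference of the 24 was -0.14, beside -0.25 for all genes tested. Gpx6, a glutathione peroxidase known from olfactory epithelium, had 14.7, 11.3, 24.6 and 31.8 TPM in Chd4KO replicates 1 to 4, against 0, 0.197, 0 and 0 TPM in Control replicates 1 to 4 (limma, adjusted p = 0.00035). No Control library reached 1 TPM, so Gpx6 was tested only because its Chd4KO values were high, and its call is a description. Gpx3, the secreted glutathione peroxidase of plasma, had 5974, 2464, 4402 and 4557 TPM in Chd4KO replicates 1 to 4, against 2260.1, 1516, 1194 and 1537 TPM in Control replicates 1 to 4 (adjusted p = 0.0474). That call was lost without Chd4KO replicate 1, 3 or 4 and without any of the 4 Control replicates, at adjusted p of 0.0579 to 0.156. By mean TPM over all 8 libraries, the most abundant genes not called were Gpx1, the main cytosolic peroxidase, at 220.3 ± 48.7 TPM in Chd4KO and 287 ± 62.5 TPM in Control, and Hagh, a glyoxalase that frees glutathione, at 131 ± 11.3 TPM in Chd4KO and 146 ± 5.82 TPM in Control (SD, n = 4 each). Gclc and Gclm, the subunits of the rate-limiting enzyme of glutathione synthesis, differed by -0.03 ± 0.34 and -0.22 ± 0.21 (log2(TPM + 1), SE). Gss, the other synthesis gene of the list, averaged 7.37 ± 2.03 TPM in Chd4KO and 14.2 ± 1.82 TPM in Control without overlap (limma, adjusted p = 0.0633). Cndp2 averaged 14.8 ± 3.60 TPM in Chd4KO and 28.9 ± 2.60 TPM in Control, also without overlap (adjusted p = 0.0527). Gclc, Gclm, Gss and Cndp2 were named after their values were seen.

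Genes of the Nrf2 pathway numbered 29, comprising the regulator, its partners and textbook targets. Of these, 28 were tested and 0 called by limma, beside 2.97% of all genes tested. Voom called 1, lower in Chd4KO, beside 586 of all 15167 genes it tested. At such shares, counts of 0 and 1 among 28 genes say little about this list. An unadjusted p under 0.05 was found for 3 (10.7%), beside 16.2% of all genes tested. The groups did not overlap for 4 genes, beside 14.8% of all genes tested. Named after their values were seen, the 4 were Ugdh (-0.86), Cbr3 (-0.71), Mafg (-0.86) and Tkt (-0.42), all lower in Chd4KO. The first 3 were those with an unadjusted p under 0.05. The median difference of the 28 was -0.18, beside -0.25 for all genes tested. The most abundant were the ferritin gene Ftl1, at 2761 ± 1052 TPM in Chd4KO and 2137 ± 119 TPM in Control, and the autophagy receptor gene Sqstm1, at 723 ± 381 TPM in Chd4KO and 755 ± 37.7 TPM in Control (SD, n = 4 each). Nqo1, a quinone reductase often used as a readout of Nrf2, was named after its values were seen, and averaged 14.8 ± 3.65 TPM in Chd4KO and 13.4 ± 2.30 TPM in Control (adjusted p = 0.766).

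Glutathione transferases are abundant in liver and in several other cell types, so marker lists were read beside these values. The 8 hepatocyte markers summed to 21.1 to 64.8 TPM in Chd4KO and 4.37 to 14.01 TPM in Control without overlap, and Cyp2e1 was at 0 in all 8 libraries. Alb had 0.907 to 7.54 TPM in Chd4KO and 0.0535 to 0.507 TPM in Control, and Tat had 14.1 to 23.7 TPM in Chd4KO and 2.93 to 12.7 TPM in Control. Serpina1c had 0.304 to 2.39 TPM in Chd4KO and was listed at 0 in every Control library. The groups overlapped for Apoa1, at 0.273 to 1.03 TPM in Chd4KO and 0.345 to 1.37 TPM in Control, and for Apoc3. Fga and Fgb had 31.6 and 4.79 TPM in Chd4KO replicate 2, the library with the high acinar sum. Both were at 0 in Chd4KO replicates 3 and 4. The 7 mesenchymal markers summed to 0.432 to 0.969 TPM in Chd4KO and 0.148 to 0.282 TPM in Control, and the 6 endothelial markers to 6.38 to 9.42 TPM in Chd4KO and 5.58 to 6.08 TPM in Control. Of these lists only 1 hepatocyte and 2 endothelial markers were high enough to test, and 0 were called. The 10 leukocyte markers summed to 116 to 234 TPM in Chd4KO and 130 to 165 TPM in Control. Of their 7 tested members Cd68 and Fcer1g were called higher, while Ptprc, which defines leukocytes, did not exceed 0.831 TPM. The part of these cell types in the Gstm and Gstp1 values was not tested. Of the 10 beta cell markers, Mafa and Slc2a2 were called lower and none higher.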

How the data were processed

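Per the submitters' processing notes, the tools were HISAT2 and HTSeq, with Trimmomatic, FastQC and DESeq2, on build mm10. Per the labels' protocols, RNA with an integrity number above 8 was copied to cDNA (SMART-Seq v4) and tagmented (Nextera XT). The authors deposited TPM per Ensembl gene, 1 table for each of 8 libraries. The sources used here name no annotation release. Gene symbols, coordinates and exon lengths came from GENCODE M21, in which 99.4% of the identifiers were found.

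TPM times exon length gave whole reads for 98.5 to 98.7% of values (tolerance 0.05 of a read). These served for depth and for 1 alternative. They are reads without molecular identifiers, so read numbers cover counting error only. The test was limma 3.58.1 (R 4.3.3) on log2(TPM + 1), fitted with genotype alone after a minimum of 1 TPM in 4 libraries. P-values were two-sided, Benjamini-Hochberg adjusted, and called under 0.05. The log2(TPM + 1) scale understates changes of low genes. TPM has a fixed total, so a larger insulin share lowers all other genes. The fit was tested on data simulated for both groups from the Control means and spread. A spread that differs between the groups was therefore not covered.

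Named were all members, Chd4, all tested genes of the other transferase list, all tested protein-coding neighbours, the called genes and the 2 most abundant uncalled genes of the glutathione and Nrf2 lists, and the 5 genes most like the Gstm sum. Gm12497 and 4933431E20Rik were added for their position. The members and lists were chosen with earlier results of these data known. Alternatives covered the pseudocount, the filter, 2 scalings, the variance model, recovered reads with voom, a replicate block and left-out libraries. Sequences were handled with Biopython 1.88 in Python 3.11.15, and figures drawn with matplotlib 3.10.9.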

Additional observations from a re-analysis of the deposited data

Results flagged for a closer look

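Within the 4 Control libraries, Gstm1 was 81.2 TPM in Control replicate 2, apart from the 62.9 to 64.5 TPM of the other 3. Its gap to the nearest of them was 0.913 of the whole range of the group, above Dixon's 95% critical value for 4 samples. This was the only such value among 28 groups of 4 libraries examined, where chance alone flags about 1 in 20. Control replicate 2 was also the Control library with the most reads, 40.99 M, and the highest acinar marker sum, 1573 TPM. The part of either in the Gstm1 value was not tested.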

How the results depend on the processing

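Over 17 alternatives, Gstm2, Gstm3 and Gstm7 were called higher in every one. Gstm6 was called in 10 of 16 (a minimum TPM of 5 gave it no value), Gstp1 in 8, Gstm5 in 4, and Gstm1, Gstm4 and Gstt1 in 0. Signs turned, without a call, for Gstm1 without Chd4KO replicates 2 and 4 (-0.17), for Gstm4 and Gstz1 with median-of-ratios scaling (0.20 and 0.17), scaling without hormone and mitochondrial genes (0.0682 and 0.0439) and voom (0.0257 and 0.0014), and for Mgst1 without Control replicate 1 (0.20, the others left out in turn giving down to -0.64). Of all genes, 451 were called (233 higher, 218 lower), against 752 with median-of-ratios scaling (467 higher, 285 lower), 778 with the hormone-free scaling (441 and 337), 220 at a minimum TPM of 5 and 785 without Chd4KO replicates 2 and 4. The median of all genes was -0.25, and -0.02 with median-of-ratios scaling, under which the ratio of Gstm sums was 2.29, against 1.71. Leaving out 1 library gave 171 (without Control replicate 4) to 829 (without Chd4KO replicate 4) calls, and also 175 to 242 without Control replicate 1, 2 or 3 or Chd4KO replicate 3. It gave 3 to 6 members called (3 without Chd4KO replicate 3 or any Control replicate), 0 to 1 other transferases, 1 to 3 glutathione genes, 0 to 1 Nrf2 genes and 0 to 1 neighbours, and ratios of 1.59 to 1.80. Other transferases and neighbours each reached 1 call without filter and without Chd4KO replicates 2 and 4. Glutathione genes numbered 4 without those replicates, 5 with hormone-free scaling, 4 with voom, and 1 at a minimum TPM of 5, without filter and with a pseudocount of 0.1. Nrf2 genes numbered 1 without those replicates, with both scalings and with voom. The cause of these shifts was not tested. Pairing by replicate number was not evident, though correlations over 4 libraries per group cannot exclude it. Those of same-numbered deviations were -0.02, 0.43, 0.08 and 0.04, beside -0.26 to 0.24 for the other pairs. With the replicate number as a block, 274 genes, 3 members and 1 glutathione gene were called. Depth limits Gsta4, Gstm6 and the Control values of Gstm3.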

Other observations

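A few glutathione genes lay too low for the test and are given as values only. Gstt4, a theta-class gene, was listed at 0 in all 4 Chd4KO libraries and at 0.428, 0.709, 0.259 and 0.633 TPM in Control replicates 1 to 4, the Control values standing for 3 to 13 reads. Gstp3, a pi-class gene, had 1.52, 2.03, 0.153 and 0 TPM in Chd4KO replicates 1 to 4, against 0 to 0.0939 TPM in the Control libraries. Abcc3, an exporter of conjugated compounds, had 0.785 to 2.71 TPM in Chd4KO libraries and 0.210 to 0.464 TPM in Control libraries, without overlap and without a test. These genes were named after their values were seen.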
